A study of Mus musculus with 6 samples.

Results

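The expression of 42 genes of the cell division cycle was examined in splenic TCRβ+CD4+CD44-CD127+ T cells of C57BL/6 mice carrying the Aiolos N159S variant. The genes were a fixed list of replication and mitosis genes, cyclins, cyclin-dependent kinases (CDK), their inhibitors and the E2F and pocket proteins, and all 42 were found among the 25239 genes of the count files. RNA-seq had been performed on 6 libraries, 2 for each genotype, which was wild type (Ikzf3 +/+), heterozygous (Ikzf3 +/N159S) or homozygous (Ikzf3 N159S/N159S). In the heterozygous mice 1 allele of Ikzf3, the gene of the zinc finger protein Aiolos, carried the missense variant, which had been introduced in the germline by CRISPR-Cas9 editing and is therefore present in every cell of the animal. No group received a stimulus, the cells were sorted by FACS on the stated surface markers, and the age of the animals is not given in the sources used here. The study's methods give the n of each genotype as a number of mice, while the labels do not tie a library to a single animal.

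Naive T cells are held in a resting state, G0, until they meet antigen. In resting cells the pocket proteins Rb1 and p130 (Rbl2) keep E2F target genes low, with p130 forming part of the DREAM complex, and CDK inhibitors such as p27 (Cdkn1b) restrain the kinases. When a T cell is activated, D cyclins with CDK4 and CDK6 phosphorylate the pocket proteins, E2F target genes for DNA replication are transcribed, and the genes of mitosis follow in G2. Ikaros family proteins, to which Aiolos belongs, are known as regulators of lymphocyte proliferation, and the 42 genes were read here as a measure of quiescence in the 3 genotypes.

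The libraries held 11696461 to 17317260 reads on genes, so that 1 read was worth 0.0581 to 0.0858 CPM (TMM-scaled counts relative to library size), and between 14803 and 18147 genes were detected in each. Within each genotype 1 library detected more genes than the other, namely replicate 1 of Ikzf3 +/+, replicate 2 of Ikzf3 +/N159S and replicate 2 of Ikzf3 N159S/N159S. Ikzf3 itself (chr11:98464610-98546031) was at 157 and 154 CPM in Ikzf3 +/+, 168 and 152 CPM in Ikzf3 +/N159S, and 197 and 202 CPM in Ikzf3 N159S/N159S. A missense variant does not remove the transcript, so the counts of Ikzf3 do not check the genotype labels. T cell markers were in place in every library, with Cd4 at 681 to 993 CPM, Cd3e at 283 to 429 CPM and Il7r, which encodes CD127, at 885 to 1287 CPM. The summed level of 10 B cell genes was 180 and 278 CPM in Ikzf3 +/+, 485 and 799 CPM in Ikzf3 +/N159S, and 192 and 125 CPM in Ikzf3 N159S/N159S. The 4 regulatory T cell genes summed to 49.3 to 59.4 CPM, 76.8 to 102 CPM and 47.1 to 50.6 CPM in the same order. Xist stood at 730 and 824 CPM in Ikzf3 +/N159S and at 0.772 to 1.98 CPM in the other 4 libraries, whereas the Y-linked gene Ddx3y was at 1.06 and 1.09 CPM in Ikzf3 +/N159S and at 263 to 313 CPM in the others. The labels give no sex, and in every comparison with Ikzf3 +/N159S the genotype and the sex of the mice cannot be told apart.

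Regulatory sequence is shown for 4 members that differ widely in level: per exon length, Mcm6 and Cdkn1b exceeded the median of all tested genes, whereas Ccnb2 and Cdk1 were under 1 RPKM (CPM divided by the kilobases of exon). RefSeq promoter windows (GRCm38.p6, the assembly called mm10) were found for 34 of the 42 members, and the 250 bases before the start site are printed 5′ to 3′ on the strand of the gene. The window was not found for Mcm4, Gins2, Aurkb, Ccna2, Ccne2, Ccnd1, Ccnd2 and Rb1. Capitals mark the letters searched on both strands: the E2F-type octamers TTTGGCGC, TTTCGCGC and TTTCCCGC, the cell cycle homology region (CHR) TTTGAA or TTCGAA, and the CCAAT box.
Mcm6, chr1:128359706-128359955, minus strand: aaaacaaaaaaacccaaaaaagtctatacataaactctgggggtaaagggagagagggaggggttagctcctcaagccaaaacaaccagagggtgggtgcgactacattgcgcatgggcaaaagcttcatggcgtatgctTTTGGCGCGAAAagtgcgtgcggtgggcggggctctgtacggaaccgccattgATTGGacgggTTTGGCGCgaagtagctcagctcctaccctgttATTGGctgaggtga
Cdkn1b, chr6:134920151-134920400, plus strand: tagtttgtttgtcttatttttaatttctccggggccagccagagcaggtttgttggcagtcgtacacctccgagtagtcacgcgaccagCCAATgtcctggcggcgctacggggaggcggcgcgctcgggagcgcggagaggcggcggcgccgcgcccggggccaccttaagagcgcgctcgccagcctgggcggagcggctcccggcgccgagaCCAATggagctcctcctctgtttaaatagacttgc
Cdk1, chr10:69352913-69353162, minus strand: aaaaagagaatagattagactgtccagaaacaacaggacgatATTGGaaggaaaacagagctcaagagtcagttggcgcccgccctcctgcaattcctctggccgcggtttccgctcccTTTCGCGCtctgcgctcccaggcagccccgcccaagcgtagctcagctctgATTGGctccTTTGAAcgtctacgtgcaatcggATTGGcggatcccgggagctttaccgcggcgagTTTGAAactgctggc
Ccnb2, chr9:70421555-70421804, minus strand: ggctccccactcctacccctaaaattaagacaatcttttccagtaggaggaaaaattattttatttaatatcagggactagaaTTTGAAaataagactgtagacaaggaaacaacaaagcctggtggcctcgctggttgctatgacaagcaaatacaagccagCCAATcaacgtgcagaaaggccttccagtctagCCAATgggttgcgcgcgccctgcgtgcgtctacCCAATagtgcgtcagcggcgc
In Mcm6 a TTTGGCGC and, on the other strand, a TTTCGCGC overlap within 1 run of capitals, and TTCGAA reads the same on both strands.

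An E2F-type octamer stood in 5 of the 34 windows (14.7%), those of Cdk1, Cdk2, Mcm5, Mcm6 and Mcm7, against 1.59% of the 27025 promoters searched in the same way. The CCAAT box, the site of the factor NF-Y, stood in 22 of 34 (64.7%) against 34.5% of all promoters. It was found in 7 of the 8 windows of mitosis genes and in 6 of the 7 of replication genes, and in 0 of the 3 of G1 cyclins and kinases. A CHR sequence stood in 8 of 34 (23.5%) against 17.4%, namely in Bub1b, Ccnb2, Cdk1, Mcm2, Mcm7, Mki67, Rbl2 and Top2a. These matches describe the letters of the windows, not binding in these cells.

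The members spanned a wide range of levels, compared here per exon length as RPKM in the mean of the 6 libraries. The median was 2.43 RPKM over the 41 members that passed the filter on low counts, against 9.57 RPKM over all tested genes with a known length. Pcna, the sliding clamp of DNA polymerase, was the highest at 207 RPKM. It was followed by Ccnd3 at 78.8, Ccnd2 at 74.4, Cdkn1b at 65.1, Cdkn2d at 55.0 and Cdk4 at 42.3 RPKM. Per exon length, the ranges over libraries of Ccnd3 (68.2 to 93.7), Ccnd2 (65.4 to 81.8) and Cdkn1b (56.9 to 77.1 RPKM) overlapped one another, so the order among those 3 is not resolved, whereas Pcna (193 to 221 RPKM) lay above them in every library.

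At the other end, 12 of the 42 members had a mean below 1 RPKM: Gins2, Mki67, Bub1, Bub1b, Aurkb, Birc5, Ccna2, Ccnb1, Ccnb2, Cdk1, Ccnd1 and Cdkn1a. Of these, 9 belong to mitosis or to the S, G2 and M cyclins and kinases. The lowest was the checkpoint kinase Bub1 at 0.0929 RPKM, followed by Cdk1 at 0.188 and Ccnb1 at 0.199 RPKM, which together form the kinase that drives entry into mitosis. Among replication genes 8 of 9 exceeded the median of all tested genes, compared with 1 of 9 genes of mitosis and chromosome structure and 1 of 7 S, G2 and M cyclins and kinases. Thus, the per-length levels placed the licensing genes Mcm2 to Mcm7, Cdt1 and Pcna far above the mitotic kinases in all 3 genotypes.

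**Figure D1:**
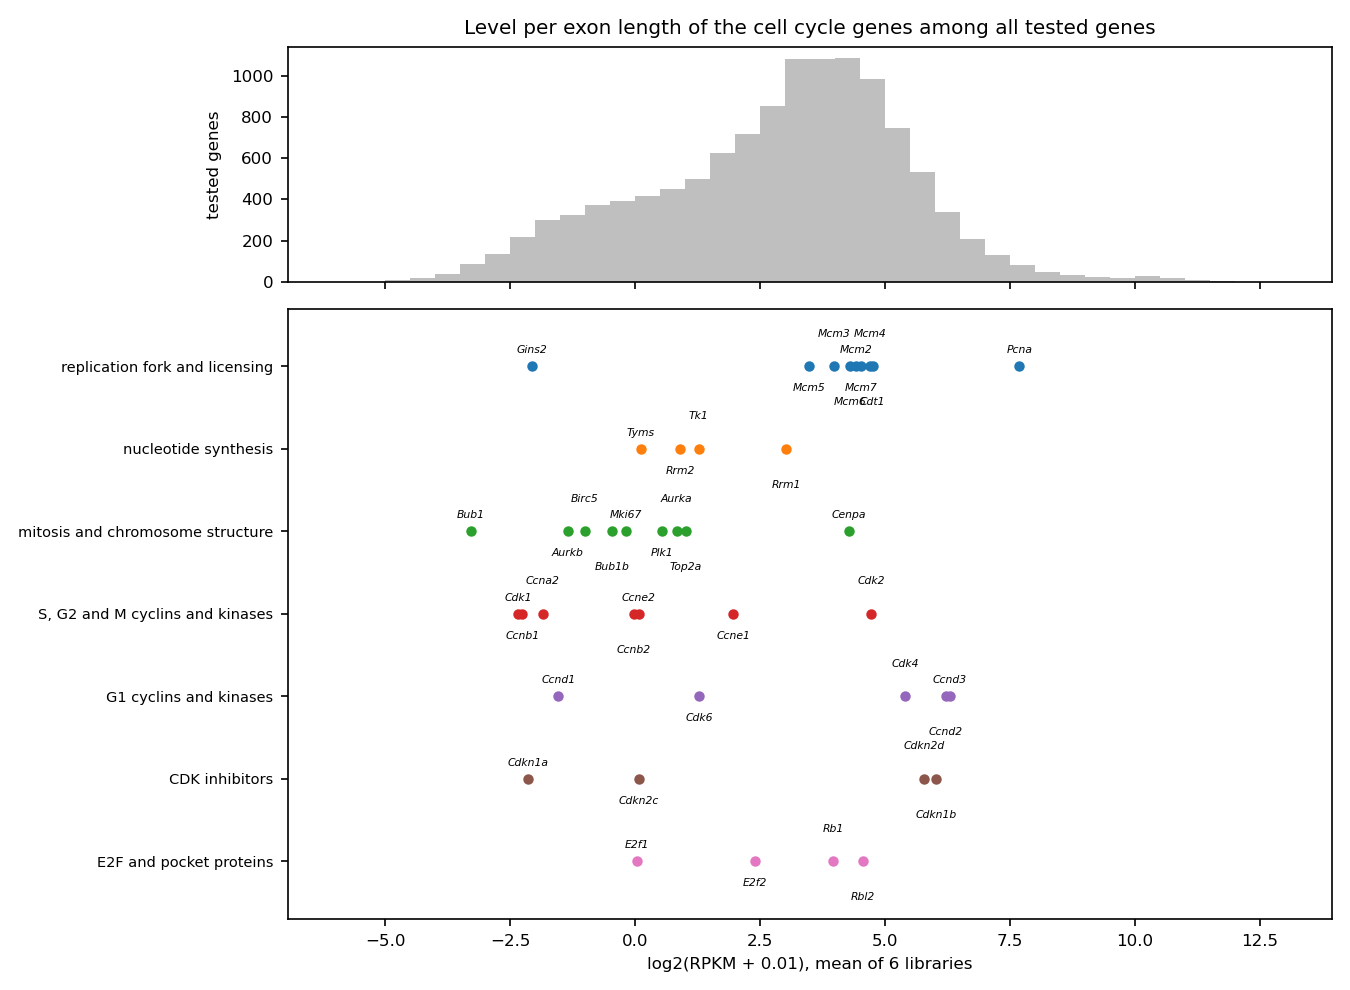
Upper panel: number of tested genes by log2(RPKM + 0.01), the mean of the 6 libraries. Lower panel: each of the 42 cell cycle genes on the same axis, 1 row per role. Replication genes other than Gins2 lie to the right, with Pcna at 207 RPKM, and most mitosis genes lie to the left, down to Bub1 at 0.0929 RPKM.

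Ikzf3 N159S/N159S was compared with Ikzf3 +/+ first, the comparison that asks whether the homozygous variant moved the resting state of the cells. None of the 41 tested members passed an adjusted p (FDR) of 0.05 in edgeR's quasi-likelihood test, against 631 of 12117 tested genes (5.21%), and DESeq2 likewise called 0 members. An unadjusted p under 0.05 was reached by 5 members (Mcm4, Cdkn1b, Ccnd3, Cdk2 and Cdkn1a) and by 18.4% of all tested genes. The estimate was higher for 15 and lower for 26 members (6061 and 6056 of all tested genes). The median log2 fold change was -0.07 against 0.00 over all tested genes. For 16 members the pair of homozygous libraries was entirely below the wild-type pair, where 23.9% of all tested genes did so, and above them for 8 members, where the background was 24.3%. Fewer cells in cycle and less RNA per cell cannot be told apart in bulk samples.

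The Ikzf3 +/N159S comparison with Ikzf3 +/+ also called 0 members, against 212 of all tested genes (1.75%), and DESeq2 called 0. An unadjusted p under 0.05 was reached by 1 member, Cdkn1b, where the background was 16.3%. The median of the members was 0.00 on the log2 scale, with 20 estimates higher and 21 lower (6280 and 5837 of all tested genes). Between the variant genotypes, Ikzf3 N159S/N159S against Ikzf3 +/N159S, edgeR and DESeq2 each called 0 members, against 180 of all tested genes (1.49%). There, 4 members (Ccnd3, Cdkn2c, Mcm7 and Cdk2) had an unadjusted p under 0.05, where the background was 11.7%, and the median was -0.10. The comparisons share libraries and are not independent of one another.

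How small a change could have been seen depended on the level of the gene. In Ikzf3 N159S/N159S against Ikzf3 +/+, the 95% interval of the fold change lay wholly within 1.5-fold in either direction for 19 of 41 members. This was 46.3%, against 58.3% of all tested genes. It lay wholly within 2-fold for 25 (61.0%, against 75.5% of all tested genes). For Ikzf3 +/N159S against Ikzf3 +/+ the same counts were 20 and 26 (48.8% and 63.4%, against 59.6% and 77.2% of all tested genes). Between the variant genotypes they were 19 and 29 (46.3% and 70.7%, against 62.2% and 78.7%). The members with the fewest reads had intervals that include changes well over 2-fold, as for Ccnb1 (log2 fold change 0.91, 95% interval -0.97 to 2.79 in Ikzf3 N159S/N159S against Ikzf3 +/+). For such genes a difference was not detectable at this depth.

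**Figure D2:**
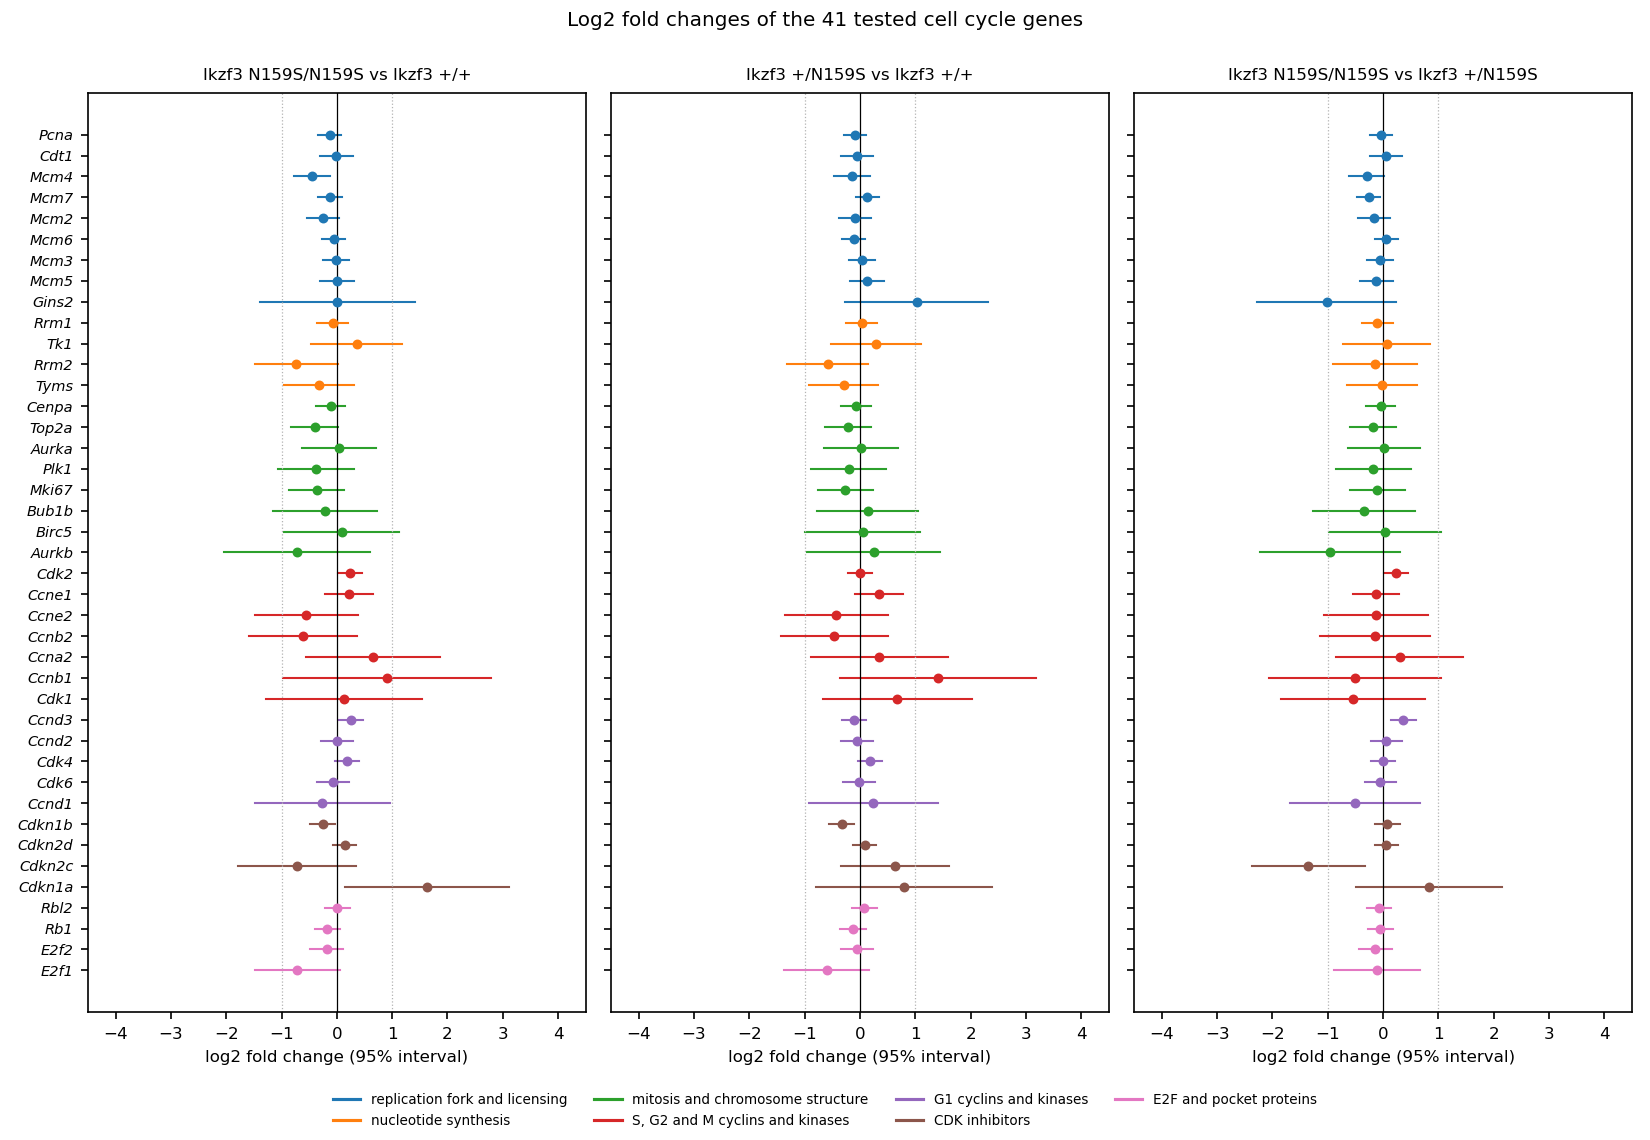
Log2 fold change (point) and 95% interval (line) of the 41 tested members in each of the 3 comparisons, coloured by role, with dotted lines at a 2-fold change in either direction. Intervals are narrow for abundant genes such as Pcna and wide for those with few reads such as Ccnb1 and Cdkn1a, and none of the members passed the adjusted threshold.

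The replication fork and licensing genes were considered next. Mcm2 to Mcm7 encode the subunits of the replicative helicase, Cdt1 loads it at origins, Gins2 belongs to the GINS complex that activates it, and Pcna encodes the polymerase clamp. Mcm4 (chr16:15623897-15637400) showed the lowest adjusted p among the members in Ikzf3 N159S/N159S against Ikzf3 +/+. Its level was 116 and 96.6 CPM in Ikzf3 +/+, 84.7 and 107 CPM in Ikzf3 +/N159S, and 69.1 and 86.9 CPM in Ikzf3 N159S/N159S. Both homozygous libraries were below both wild-type libraries, while the heterozygous ones overlapped with either. The log2 fold change of Mcm4 in Ikzf3 N159S/N159S against Ikzf3 +/+ was -0.44 (95% interval -0.77 to -0.12), with an edgeR adjusted p of 0.122. Within each genotype the library with more genes detected had the higher Mcm4 level. With that split as a term of the edgeR model, a term chosen after the data were seen, the adjusted p of Mcm4 was 0.000269, and over 14 alternatives it ran from 0.000269 to 0.508.

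Mcm2 was at 70.9 and 84.0 CPM in Ikzf3 +/+, 81.5 and 64.4 CPM in Ikzf3 +/N159S, and 63.7 and 67.1 CPM in Ikzf3 N159S/N159S. Mcm5 was at 33.7 and 40.9, 41.04 and 40.5, and 41.3 and 33.3 CPM in the same order. Pcna was at 336 and 325 CPM in Ikzf3 +/+, 314 and 308 CPM in Ikzf3 +/N159S, and 293 and 311 CPM in Ikzf3 N159S/N159S. The wild-type libraries were the highest for Pcna, by a margin that did not pass the test (log2 fold change -0.13, 95% interval -0.33 to 0.07, edgeR adjusted p = 0.513), whereas the groups overlapped for Mcm5, although scaled by raw totals its heterozygous libraries stood above the others. Mcm7, whose exons overlap those of Ap4m1 and Cops6 on the other strand, was at 66.6 and 68.7, 72.6 and 75.8, and 62.0 and 62.0 CPM. It differed most between the variant genotypes (-0.26, 95% interval -0.47 to -0.05), with an edgeR adjusted p of 0.291.

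Across the 9 replication genes, Ikzf3 N159S/N159S had a lower estimate than Ikzf3 +/+ for 8 and a higher one for 1, between -0.44 and 0.01 on the log2 scale. Over all tested genes, 6056 of 12117 had a lower one. Among the 8, Mcm3 (-0.020), Cdt1 (-0.007) and Mcm5 (-0.0004) hardly differed. The summed level of the 9 genes was 816 and 817 CPM in Ikzf3 +/+, 780 and 790 CPM in Ikzf3 +/N159S, and 729 and 747 CPM in Ikzf3 N159S/N159S. The homozygous libraries thus held the lowest sums, also when scaled by raw totals (724 and 743). The wild-type sums were the highest with TMM scaling but not by raw totals, where replicate 2 of Ikzf3 +/N159S (811) exceeded replicate 2 of Ikzf3 +/+ (801). Pcna alone made up a large part of each sum. The largest falls in mean, from Ikzf3 +/+ to Ikzf3 N159S/N159S, were those of Pcna (330 and 302 CPM) and Mcm4 (106 and 78.0 CPM). Gins2 had 7 to 27 reads a library, on exons of which a long stretch is shared with Gse1 on the other strand, so its values are uncertain.

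The nucleotide synthesis genes supply deoxynucleotides in S phase: Rrm1 and Rrm2 encode the subunits of ribonucleotide reductase, Tyms thymidylate synthase and Tk1 thymidine kinase. Rrm2, the subunit that limits the enzyme to S phase, was at 6.35 and 4.44 CPM in Ikzf3 +/+, 4.30 and 2.83 CPM in Ikzf3 +/N159S, and 2.50 and 4.03 CPM in Ikzf3 N159S/N159S. Both homozygous libraries were below both wild-type libraries, and the heterozygous ones were so with TMM scaling but overlapped them by raw totals. The log2 fold change of Rrm2 in Ikzf3 N159S/N159S was -0.73 (95% interval -1.48 to 0.02, edgeR adjusted p = 0.286), on 43 to 74 reads a library. Tyms ranged from 2.91 to 4.03 CPM, also with both wild-type libraries highest, and Tk1 from 2.23 to 4.77 CPM with overlapping groups. Rrm1 lay between 29.1 and 35.6 CPM in all 6 libraries.

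Among the genes of mitosis and chromosome structure, the proliferation antigen Mki67 (chr7:135689784-135716450) was at 9.18 and 11.02 CPM in Ikzf3 +/+, 9.02 and 7.85 CPM in Ikzf3 +/N159S, and 6.28 and 9.59 CPM in Ikzf3 N159S/N159S. The means were 10.1 ± 1.30, 8.44 ± 0.828 and 7.93 ± 2.34 CPM (SD, n = 2 each), so the homozygous libraries differed from each other by more than the means of the genotypes did. The fold change was -0.36 on the log2 scale (95% interval -0.86 to 0.13), with an edgeR adjusted p of 0.445. Top2a, which untangles chromosomes as topoisomerase II, was at 12.3 and 11.8, 9.14 and 11.6, and 8.02 and 10.3 CPM in the same order of genotypes. The homozygous libraries of Top2a were below both wild-type libraries, and the heterozygous ones were so with TMM scaling but not by raw totals, with an adjusted p of 0.303 for Ikzf3 N159S/N159S in edgeR.

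The mitotic kinase Plk1 was at 3.69 and 3.56 CPM in Ikzf3 +/+, 2.89 and 3.41 CPM in Ikzf3 +/N159S, and 2.38 and 3.22 CPM in Ikzf3 N159S/N159S. Birc5 (survivin), a subunit of the chromosomal passenger complex with Aurkb, was at 1.97 and 1.28, 1.53 and 1.80, and 2.27 and 1.10 CPM. The homozygous libraries lay below the wild-type ones for Plk1, as did the heterozygous ones with TMM scaling but not by raw totals, and the groups overlapped for Birc5. The remaining genes of this role ran from 1 to 10 reads a library for Bub1, which was below the filter and not tested, to 402 to 531 reads for Cenpa, the centromeric histone, at 29.7 to 34.5 CPM. Aurka and Bub1b ranged from 2.96 to 3.86 and from 1.68 to 3.89 CPM with overlapping groups. Aurkb was at 1.03 and 0.605 CPM in Ikzf3 +/+, 0.943 and 0.965 CPM in Ikzf3 +/N159S, and 0.523 and 0.439 CPM in Ikzf3 N159S/N159S, on 6 to 16 reads a library. Of the 8 tested genes of this role, Ikzf3 N159S/N159S had lower estimates for 6 and higher ones for 2. The same genes divided 4 and 4 in Ikzf3 +/N159S. Over all 12117 tested genes, the estimate was lower for 6056 in Ikzf3 N159S/N159S and for 5837 in Ikzf3 +/N159S.

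Leaving out Cenpa, the sum over 12 mitotic genes (the other genes of this role with Ccna2, Ccnb1, Ccnb2 and Cdk1) was 38.4 and 38.3 CPM in Ikzf3 +/+, 33.7 and 37.1 CPM in Ikzf3 +/N159S, and 29.4 and 34.0 CPM in Ikzf3 N159S/N159S. It rested on 447 to 577 reads a library. The homozygous sums were below both wild-type sums on either scale, whereas the heterozygous ones were so with TMM scaling only, since by raw totals replicate 2 of Ikzf3 +/N159S (38.1) exceeded replicate 2 of Ikzf3 +/+ (37.5). Mki67 and Top2a made most of the separation, with 21.4 and 22.9, 18.2 and 19.5, and 14.3 and 19.9 CPM together. The other 10 genes summed to 16.9 and 15.5, 15.6 and 17.6, and 15.1 and 14.1 CPM, where the heterozygous libraries overlapped the wild type and the homozygous ones were the lowest. The B cell genes were highest in Ikzf3 +/N159S. The 9 CD8 T or NK cell genes summed to 69.2 and 75.5 CPM in Ikzf3 +/+, 63.3 and 58.8 CPM in Ikzf3 +/N159S, and 48.3 and 42.9 CPM in Ikzf3 N159S/N159S, and the 6 thymocyte genes to 17.0 and 20.2, 11.7 and 18.7, and 4.13 and 4.68 CPM. Both lists were thus lowest in the homozygous libraries. With TMM scaling the mitotic sum was not, since replicate 2 of Ikzf3 N159S/N159S (34.0) exceeded replicate 1 of Ikzf3 +/N159S (33.7). By raw totals the mitotic sum was also lowest there, at 29.2 and 33.9 against 34.1 and 38.1 in Ikzf3 +/N159S. Cd8b1, Dntt and Cd24a were called lower in Ikzf3 N159S/N159S than in Ikzf3 +/+ by edgeR. Gzma was the only tested gene of either list with a higher estimate there (log2 fold change 2.66, edgeR adjusted p = 0.0555). It was at 0.429 and 0.403 CPM in Ikzf3 +/+ and 2.27 and 3.07 CPM in Ikzf3 N159S/N159S. The part of other cell types in these sums was not tested.

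Of the S, G2 and M cyclins and kinases, Cdk1 was at 0.686 and 0.672 CPM in Ikzf3 +/+, 0.590 and 1.61 CPM in Ikzf3 +/N159S, and 0.756 and 0.732 CPM in Ikzf3 N159S/N159S. Ccna2 (cyclin A) was at 0.686 and 0.807, 0.708 and 1.22, and 0.930 and 1.46 CPM. Ccnb1 (cyclin B) was at 0.172 and 0.336, 0.590 and 0.836, and 0.233 and 0.805 CPM. These 3 genes had 2 to 25 reads in any library, and replicate 2 of Ikzf3 +/N159S, the library with the most genes detected, held the highest Cdk1 and Ccnb1. Ccnb2 ran from 1.17 to 2.23 CPM with both Ikzf3 N159S/N159S libraries below both wild-type ones. The E cyclins Ccne1 and Ccne2 ran from 6.18 to 8.75 and from 2.18 to 5.75 CPM. All 4 variant libraries were above both wild-type libraries for Ccne1, and the groups overlapped for Ccne2. Ccne1 was at 7.47 and 6.18 CPM in Ikzf3 +/+, 8.49 and 8.75 CPM in Ikzf3 +/N159S, and 8.26 and 7.54 CPM in Ikzf3 N159S/N159S (log2 fold change 0.22, 95% interval -0.21 to 0.65, edgeR adjusted p = 0.625, homozygous against wild type). In this role 4 members (Ccna2, Ccne1, Cdk1 and Cdk2) had both homozygous libraries above both wild-type ones, and 1 (Ccnb2) had them below. Over all tested genes, 24.3% had them above and 23.9% below. For Cdk1 the nearest libraries of the 2 genotypes, at 0.686 and 0.732 CPM, were less than 1 read apart (0.0858 and 0.0732 CPM a read). Ccna2 had 8 to 20 reads a library, and its exons overlap those of Exosc9 on the other strand.

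Cdk2, the partner kinase of cyclins E and A, was the only abundant gene of that role. It was at 60.1 and 60.3 CPM in Ikzf3 +/+, 61.1 and 59.1 CPM in Ikzf3 +/N159S, and 72.4 and 69.1 CPM in Ikzf3 N159S/N159S. The homozygous libraries stood above all others. The log2 fold change of Cdk2 against Ikzf3 +/+ was 0.23 (95% interval 0.02 to 0.45) with an edgeR adjusted p of 0.227, and against Ikzf3 +/N159S it was 0.24 with an adjusted p of 0.358.

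The D cyclins, which link growth signals to CDK4 and CDK6, divided into abundant and scarce members. Ccnd2 was at 549 and 462 CPM in Ikzf3 +/+, 439 and 533 CPM in Ikzf3 +/N159S, and 468 and 544 CPM in Ikzf3 N159S/N159S. Its spread within each genotype was larger than the difference between genotypes, and within each genotype the library with more genes detected was the higher one. The log2 fold change of Ccnd2 in Ikzf3 N159S/N159S was 0.00 (95% interval -0.28 to 0.29). Ccnd1, hardly used by T cells, was at 1.201 and 1.28, 1.71 and 1.22, and 0.581 and 1.54 CPM, on 10 to 29 reads a library.

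Ccnd3 (chr17:47505051-47599689), the D cyclin required for the expansion of thymocytes, was at 197 and 173 CPM in Ikzf3 +/+, 177 and 167 CPM in Ikzf3 +/N159S, and 214 and 229 CPM in Ikzf3 N159S/N159S. The homozygous libraries were above the other 4. Against Ikzf3 +/N159S the log2 fold change of Ccnd3 was 0.37 (95% interval 0.14 to 0.59), with an edgeR adjusted p of 0.120, the lowest among the members in that comparison. It was 0.26 (0.04 to 0.48) against Ikzf3 +/+, with an adjusted p of 0.193. The first of these passed the threshold in edgeR's likelihood ratio test (adjusted p = 0.0434), without the filter on low counts (0.0356) and with the term for genes detected (0.00371), within a range over 14 alternatives of 0.00371 to 0.44. The exons of Ccnd3 overlap those of Bysl on the opposite strand.

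Cdk4 was at 82.3 and 76.8 CPM in Ikzf3 +/+, 94.99 and 85.8 CPM in Ikzf3 +/N159S, and 91.8 and 89.2 CPM in Ikzf3 N159S/N159S. All 4 variant libraries exceeded both wild-type libraries, by 0.19 on the log2 scale in either genotype, with edgeR adjusted p values of 0.366 for the homozygous and 0.400 for the heterozygous mice. Its exons overlap those of Tspan31. Cdk6 was at 27.5 and 29.5, 26.0 and 30.4, and 26.3 and 28.2 CPM, with overlapping groups and an interval of -0.35 to 0.22 for Ikzf3 N159S/N159S against Ikzf3 +/+.

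CDK inhibitors hold a resting cell out of the cycle. The most abundant, Cdkn1b (chr6:134920401-134925525), which encodes p27, was at 324 and 351 CPM in Ikzf3 +/+, 259 and 277 CPM in Ikzf3 +/N159S, and 266 and 300.1 CPM in Ikzf3 N159S/N159S. Every variant library was below both wild-type libraries, with means of 337 ± 19.1, 268 ± 12.4 and 283 ± 24.1 CPM (SD, n = 2 each). The log2 fold change of Cdkn1b was -0.33 (95% interval -0.56 to -0.11) in Ikzf3 +/N159S and -0.25 (-0.48 to -0.03) in Ikzf3 N159S/N159S. The adjusted p in edgeR was 0.135 and 0.205, respectively. With the term for genes detected it was 0.0064 and 0.0257, the lowest of 14 alternatives, whose highest values were 0.529 and 0.653.

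Cdkn2d (p19INK4d) was at 76.3 and 77.3 CPM in Ikzf3 +/+, 83.1 and 80.2 CPM in Ikzf3 +/N159S, and 83.8 and 86.1 CPM in Ikzf3 N159S/N159S. Its variant libraries were above the wild-type ones by a small margin (0.15 in Ikzf3 N159S/N159S, 95% interval -0.06 to 0.35). Cdkn2c (p18INK4c) was at 3.17 and 2.15 CPM in Ikzf3 +/+, 4.599 and 3.60 CPM in Ikzf3 +/N159S, and 0.814 and 2.49 CPM in Ikzf3 N159S/N159S, on 14 to 78 reads a library. Both heterozygous libraries were above the other 4, as were the B cell genes, whose part in this difference was not tested. Between the variant genotypes the log2 fold change of Cdkn2c was -1.35 (95% interval -2.37 to -0.33), with an edgeR adjusted p of 0.242, which was 0.00528 without the filter on low counts and ran from 0.00528 to 0.678 over 14 alternatives.

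Cdkn1a (p21), which p53 induces on DNA damage, had 2 and 6 reads in Ikzf3 +/+, 7 and 10 reads in Ikzf3 +/N159S, and 16 and 13 reads in Ikzf3 N159S/N159S. These correspond to 0.172 and 0.403, 0.413 and 0.643, and 0.930 and 0.952 CPM. The homozygous libraries were the highest, and the log2 fold change of Cdkn1a against Ikzf3 +/+ was 1.63 (95% interval 0.14 to 3.12), the largest estimate of the list in that comparison. With an edgeR adjusted p of 0.227 it did not pass the threshold, nor did it in any of the 13 alternatives that kept the gene (0.0954 to 0.656).

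Among E2F and pocket proteins, E2f1, an activator of S phase genes and itself an E2F target, was at 4.12 and 4.37 CPM in Ikzf3 +/+, 2.005 and 3.60 CPM in Ikzf3 +/N159S, and 2.27 and 2.93 CPM in Ikzf3 N159S/N159S. All 4 variant libraries were below the wild-type ones (log2 fold change -0.72, 95% interval -1.49 to 0.05, for Ikzf3 N159S/N159S), with an edgeR adjusted p of 0.313 on 34 to 65 reads a library. E2f2 was at 26.7 and 26.2, 27.7 and 23.5, and 24.4 and 22.1 CPM. The pocket protein gene Rb1 was at 75.7 and 80.1, 69.6 and 73.6, and 64.9 and 73.6 CPM. Rb1 thus had both homozygous libraries below both wild-type libraries, and the heterozygous ones too with TMM scaling but not by raw totals, with an interval of -0.40 to 0.06 in Ikzf3 N159S/N159S. Rbl2, which encodes p130, was at 108 and 119, 121 and 119, and 108 and 121 CPM, with overlapping groups and an interval of -0.21 to 0.23 for Ikzf3 N159S/N159S against Ikzf3 +/+.

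**Figure D3:**
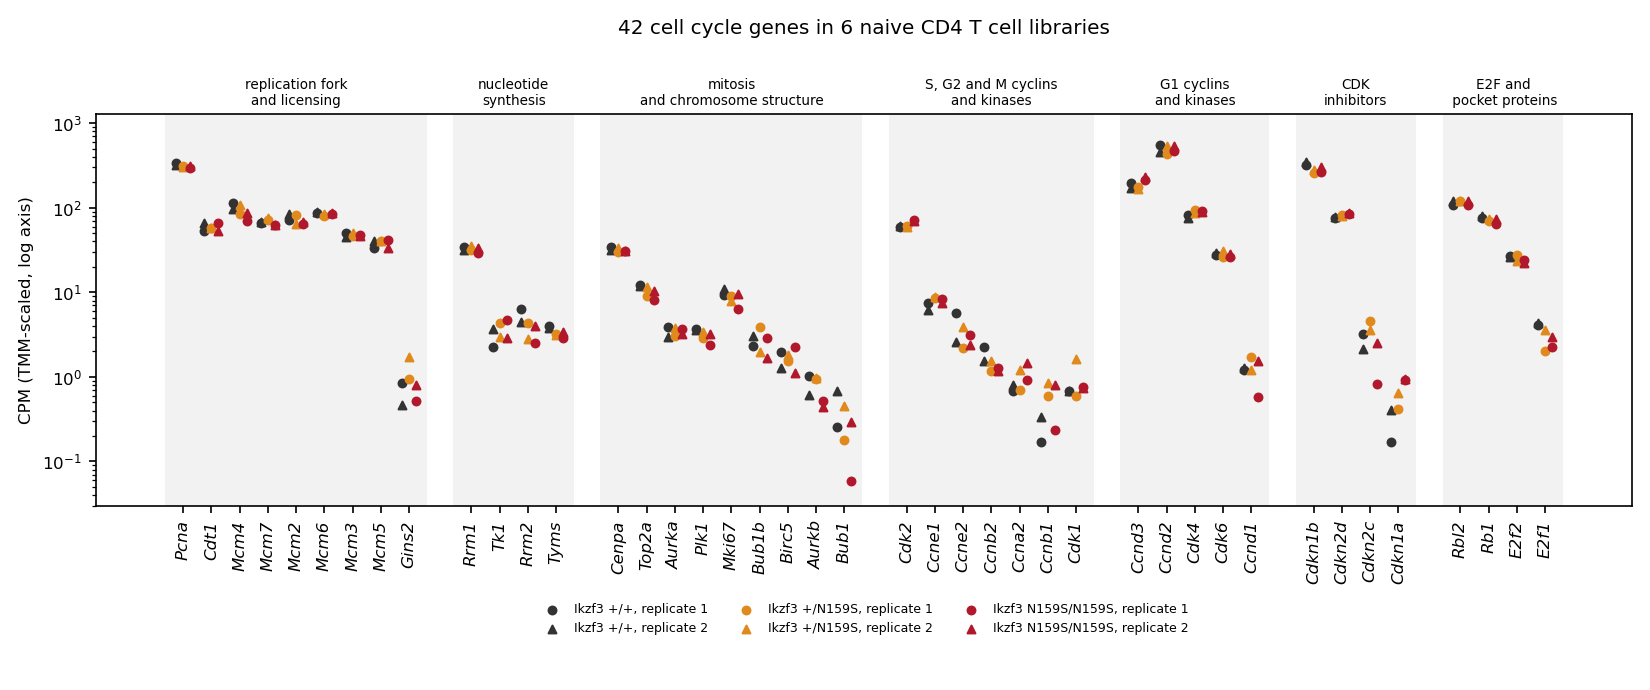
CPM on a log axis of the 42 cell cycle genes in each library, grouped by role and coloured by genotype, with circles for replicate 1 and triangles for replicate 2. The genotypes lie close together for abundant genes such as Pcna (293 to 336 CPM), and replicates spread widely for those under 1 CPM such as Bub1.

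The other genes of the cell cycle were read from lists of the same kind. Of 33 tested genes of origins and the replisome, 0 passed the threshold in any of the 3 comparisons in edgeR, and 1, 4 and 2 had an unadjusted p under 0.05 in Ikzf3 N159S/N159S against Ikzf3 +/+, Ikzf3 +/N159S against Ikzf3 +/+ and between the variant genotypes. The same held for 21 further regulators, with 5, 3 and 2. Over all tested genes, an unadjusted p under 0.05 was reached by 18.4%, 16.3% and 11.7% in the same order of comparisons. DESeq2 also called 0 in both lists. The likelihood ratio test of edgeR called 1 regulator in Ikzf3 N159S/N159S against Ikzf3 +/+, where it called 1042 of all genes. Between the variant genotypes it called 1 gene of each list and 473 of all genes. Among 38 further genes of mitosis, the homozygous libraries had 2 higher and 0 lower than the wild type (5.26%, against 5.21% of all tested genes), and 0 passed in the other comparisons, while the median log2 fold change of that list was -0.15 in Ikzf3 N159S/N159S and -0.16 in Ikzf3 +/N159S. Among 18 further genes of the E2F, DREAM and MuvB group, 1 passed in Ikzf3 N159S/N159S against Ikzf3 +/+ (5.56%), and 0 in the other comparisons. The shares of 5.26% and 5.56% that passed are close to the background.

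The 2 mitosis genes that rose were Kif23 and Stmn1. Kif23 (chr9:61917277-61946810), a kinesin of the central spindle in cytokinesis, was at 14.8 and 13.2 CPM in Ikzf3 +/+, 23.2 and 18.5 CPM in Ikzf3 +/N159S, and 25.2 and 24.96 CPM in Ikzf3 N159S/N159S. It rose by 0.84 on the log2 scale in Ikzf3 N159S/N159S (edgeR adjusted p = 0.00845), a call lost without replicate 2 of Ikzf3 +/+, where the change was 0.76 and the adjusted p 0.0842. Stmn1 (stathmin), a microtubule destabiliser, was at 42.5 and 36.4, 47.6 and 62.0, and 56.9 and 70.8 CPM, a rise of 0.69 (adjusted p = 0.0238). Without replicate 1 or replicate 2 of Ikzf3 +/+ or replicate 2 of Ikzf3 N159S/N159S, Stmn1 no longer passed, with changes of 0.81, 0.59 and 0.54 and adjusted p values of 0.0537, 0.185 and 0.146. Kif23 and Stmn1 were thus higher while Mki67, Top2a and Plk1 had lower estimates in the same libraries.

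Myc (chr15:61985341-61990361), a driver of T cell growth, was at 102 and 102 CPM in Ikzf3 +/+, 110 and 109 CPM in Ikzf3 +/N159S, and 133 and 143 CPM in Ikzf3 N159S/N159S. It rose by 0.44 in the homozygous libraries (edgeR adjusted p = 0.0191). The call was lost when any 1 of the 4 libraries compared was left out, with adjusted p values of 0.0525 to 0.134 and changes of 0.40 to 0.49.

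Of 24 genes tied to T cell quiescence, the homozygous libraries had 4 higher and 2 lower than the wild type (25%, against 5.21% of all tested genes), in a list chosen with earlier results of these data known. Klf6 (chr13:5861489-5870393), a zinc finger factor, was at 563 and 637 CPM in Ikzf3 +/+, 588 and 702 CPM in Ikzf3 +/N159S, and 992 and 1172 CPM in Ikzf3 N159S/N159S. It rose by 0.85 against Ikzf3 +/+ and by 0.75 against Ikzf3 +/N159S (edgeR adjusted p = 0.00269 and 0.0142), the second of which was lost without replicate 1 of Ikzf3 +/N159S or replicate 2 of Ikzf3 N159S/N159S (changes of 0.63 and 0.64, adjusted p = 0.0652 and 0.104). The homozygous libraries stood clear of the other 4. Socs3, an inhibitor of cytokine signalling, was at 102 and 113, 130 and 162, and 169 and 204 CPM, and rose by 0.79 (adjusted p = 0.00528). Klf6 and Socs3 passed against Ikzf3 +/+ under all 14 alternatives.

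Btg2 and Tob2 belong to the antiproliferative BTG/TOB family. Btg2 rose by 0.49 in Ikzf3 N159S/N159S (edgeR adjusted p = 0.0122), from 274 and 303 CPM in Ikzf3 +/+ to 401 and 411 CPM, with 336 and 328 CPM in Ikzf3 +/N159S. Tob2 fell by 0.69 on the log2 scale (adjusted p = 0.00707), from 265 and 339 CPM to 195 and 178 CPM, with 225 and 211 CPM in Ikzf3 +/N159S. For both genes the heterozygous libraries lay between the others. The Btg2 call was lost without replicate 1 of Ikzf3 +/+ or either replicate of Ikzf3 N159S/N159S (changes of 0.42, 0.51 and 0.49, adjusted p of 0.129, 0.0562 and 0.0797). The Tob2 call was lost without replicate 2 of either genotype (changes of -0.50 and -0.62, adjusted p of 0.0737 and 0.068). The other 2 genes of the list that passed were Klf2, which was higher, and Tob1, which was lower.

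In Ikzf3 +/N159S, 1 of the 24 quiescence genes (4.17%, against 1.75% of all tested genes) passed against Ikzf3 +/+ in edgeR's quasi-likelihood test. DESeq2 called 4 of them lower and 0 higher, where it called 341 of all 12117 tested genes. Zfp36l2, an RNA-binding protein that promotes mRNA decay, was at 1756 and 2138 CPM in Ikzf3 +/+, 1037 and 1009 CPM in Ikzf3 +/N159S, and 1767 and 1666 CPM in Ikzf3 N159S/N159S. It fell by 0.93 on the log2 scale against Ikzf3 +/+ (edgeR adjusted p = 0.0029) and was higher by 0.75 in Ikzf3 N159S/N159S than in Ikzf3 +/N159S (adjusted p = 0.0104), under all 14 alternatives. The heterozygous libraries were thus the low ones, while the homozygous and wild-type libraries overlapped. Txnip, an inhibitor of thioredoxin and of glucose uptake, was at 919 and 836, 601 and 664, and 905 and 1085 CPM, higher by 0.65 in Ikzf3 N159S/N159S than in Ikzf3 +/N159S (adjusted p = 0.0181). The Txnip call was lost without replicate 1 of Ikzf3 +/N159S or replicate 2 of Ikzf3 N159S/N159S (changes of 0.59 and 0.54, adjusted p of 0.0829 and 0.146). Xist, the B cell genes and the regulatory T cell genes were highest in the same heterozygous libraries, and their part in the Zfp36l2 and Txnip values was not tested.

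**Figure D4:**
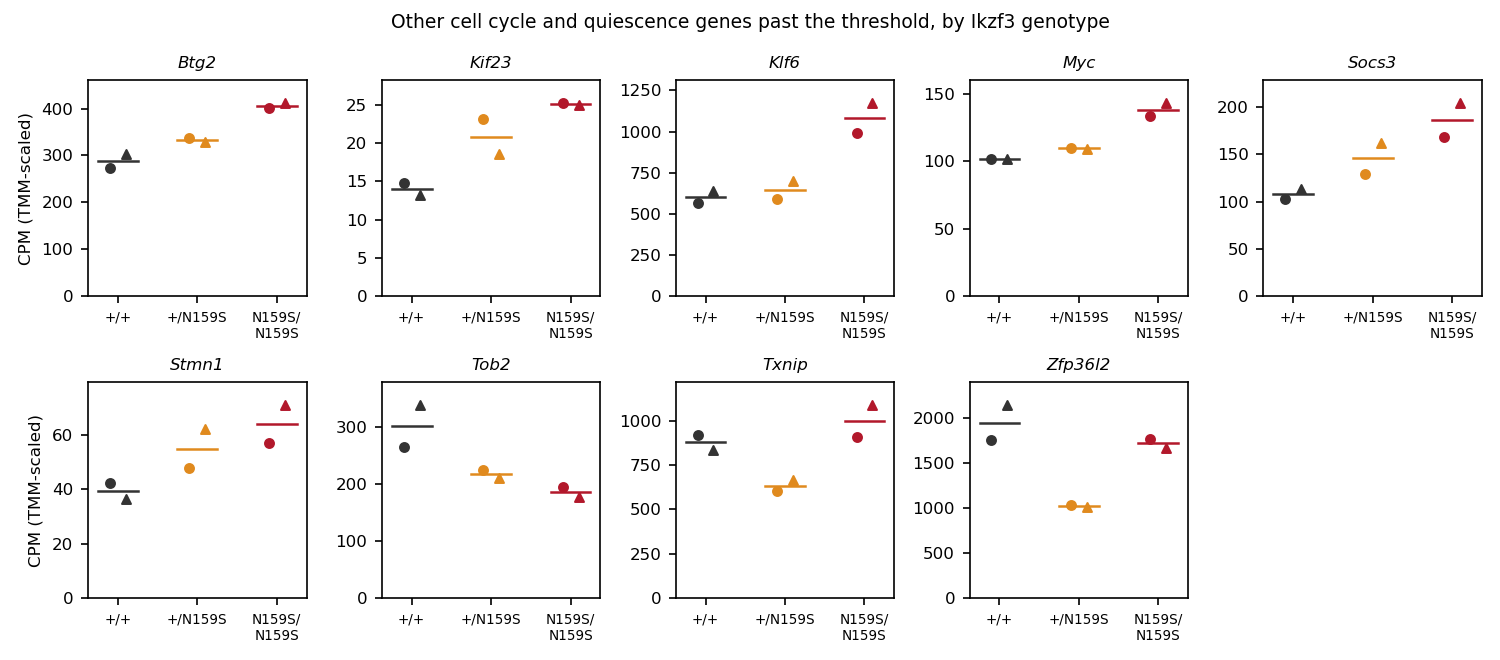
CPM from 0 in each library by Ikzf3 genotype for the 9 named genes of the wider cell cycle and quiescence lists that passed the threshold in at least 1 comparison. Circles are replicate 1, triangles replicate 2 and bars the mean of the 2 libraries. Klf6 and Myc are high in the N159S/N159S libraries, and Zfp36l2 and Txnip are low in the +/N159S libraries.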

How the data were processed

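RNA-seq of sorted splenic T cells was used, with 2 libraries per genotype and groups taken from the sample titles. Per the labels and the study's methods, the authors selected poly(A) RNA, trimmed reads with Trimmomatic 0.38.1, aligned them to mm10 with HISAT2 2.2.1 and used HTSeq 2.0.2 to count reads per refGene gene. The deposited values are raw counts per gene with no normalization. The HTSeq strand setting is not given in the sources used here, and 10 members have exons that overlap a protein-coding gene on the opposite strand, while 5 have a pseudogene named after them.

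In R 4.3.3, genes were kept by edgeR 4.0.16 filterByExpr (minimum count 10, minimum total 15), which left 12117 of 25239, and library sizes were TMM-scaled. The quasi-likelihood fit had 1 coefficient per genotype and held all 6 libraries, and p-values were adjusted by Benjamini-Hochberg over all tested genes. The code was tested on simulated data. A call is an FDR under 0.05. Intervals of 95% come from the F statistic and its degrees of freedom. RPKM used GENCODE M21 exon lengths and gene positions. DESeq2 1.42.0, other filters, scalings and fits, and leaving out each library were tried as alternatives. Promoter letters were searched in the 250 bases before the first listed RefSeq start. The members and gene lists were chosen with earlier results of these data known. Values in every library were given for members of direct bearing on proliferation and for all CDK inhibitors, G1 cyclins and kinases, E2F and pocket proteins, and for members with an unadjusted p under 0.05. From the other lists, up to 4 genes per list and comparison with the lowest adjusted p under 0.05 were named, and Klf2 and Tob1 were named after their values were seen.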

Additional observations from a re-analysis of the deposited data

How the results depend on the processing

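The count of members called was 0 in all 3 comparisons by DESeq2, with RLE size factors, with at least 10 reads in every library, with only the genotypes compared and at an FDR under 0.01, and leaving out each library in turn gave 0 to 0 in each. Without a filter on low counts it was 1 in Ikzf3 N159S/N159S against Ikzf3 +/+ (Mcm4), 0 in Ikzf3 +/N159S against Ikzf3 +/+, and 2 between the variant genotypes (Ccnd3 and Cdkn2c). edgeR's likelihood ratio test called 0, 0 and 1 (Ccnd3). The cause was not tested. Over all tested genes the counts of 631, 212 and 180 became 671, 341 and 251 by DESeq2, 1047, 710 and 553 without the filter, 1042, 640 and 473 by the likelihood ratio test, and 265, 46 and 44 at an FDR under 0.01. Leaving out a library gave 257 to 734, 83 to 251 and 43 to 197. The signs of members with small or poorly measured estimates changed in 33 of 566, 33 of 566 and 37 of 568 pairs of a member and an alternative, the largest estimate among them being 0.91 for Ccnb1.

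With the replicate number as a block, 0 members were called in each comparison, and 495, 149 and 135 of all genes. The labels do not say whether the numbers pair the samples. Deviations of same-numbered libraries correlated at -0.20, -0.27 and 0.26, values too few and mixed in sign to decide it. A crossed pairing was chosen after seeing the data. Across genotypes, it joined the libraries with more genes detected in 1 block and those with fewer in another. That block called 3, 1 and 3 members (Ccnd3, Cdkn1b and Mcm4, then Cdkn1b, then Ccnd3, Cdkn2c and Mcm4), and 1760, 1385 and 834 of all genes. Depth limits the members under about 1 CPM, where 1 read is 0.0581 to 0.0858 CPM.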
